A study of Mus musculus with 15 samples.

Results

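The suppressor of cytokine signaling (SOCS) family was followed through RNA-seq libraries of group 2 innate lymphoid cells (ILC2s) and of their bone marrow precursors (ILC2p). The family is the 8 genes with the symbols Cish and Socs1 to Socs7, chosen by name and not by their values, and all 8 were found among the 24690 gene entries of each library. ILC2s are lymphocytes without antigen receptors that respond to cytokines and release IL-5, IL-13 and other cytokines of type 2 immunity. The study asked how loss of the TGF-β receptor chain TβR2, the product of Tgfbr2, changes ILC2s and ILC2p.

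All libraries came from C57BL/6 mice or cells carrying Tgfbr2f/f and ER-Cre, so the WT groups carry the same floxed alleles and the same Cre. Donors 8 to 12 weeks old received tamoxifen at 1 mg per day for 5 days (Tgfbr2-/-) or sunflower oil (WT). ER-Cre is active in every cell type once tamoxifen is given, so deletion is not limited to ILC2s. By the study's methods, treated mice were killed the day after the last dose. ILC2s were sorted from the lamina propria (LP) of these mice as CD45+Lin-CD127+Sca1+CD25+KLRG1+ cells. ILC2p were sorted as CD45.2+Lin-CD127+α4β7+CD25+ cells from the bone marrow (BM) of mixed chimeras, 6 weeks after donor BM and CD45.1 BM had been given to lethally irradiated CD45.1 hosts. LP ILC2s gave 4 WT and 3 Tgfbr2-/- libraries, and ILC2p gave 4 WT and 4 Tgfbr2-/- libraries. Each cell type was sequenced in 2 experiments of its own. The labels do not say that replicates came from separate animals, so p-values measure the spread between these libraries, which may be technical.

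Cytokine receptors of the JAK-STAT type pass their signal to JAK kinases, which phosphorylate STAT factors, and STAT factors turn on the SOCS genes. The SOCS proteins then bind the receptor or the kinase through an SH2 domain, and their SOCS box recruits an elongin-cullin ubiquitin ligase, which closes a negative feedback loop. CIS, the product of Cish, and SOCS2 are classical products of STAT5 signaling, the route that IL-2, IL-7, IL-9 and TSLP use in ILC2s. SOCS1 and SOCS3 can also block the kinase itself. SOCS1 is best known for limiting interferon-γ and IL-4 signaling, and SOCS3 for limiting IL-6 and G-CSF signaling. SOCS4 to SOCS7 are less well understood and are known mainly from growth factor and insulin receptor signaling.

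The binding motif of STAT factors, TTCNNNGAA, was searched in the RefSeq promoter windows of GRCm38.p6, which run from 250 bases before to 50 bases after the start of a gene. The motif reads the same on both strands, and 8.30% of all 32851 windows held it at least once. Windows were available for 4 members (Cish, Socs1, Socs3 and Socs4), and the motif was found in 2 of them. The stretches that hold it are shown because they are the places where these letters occur near the start of a feedback gene, with the motif in capitals and the last base of the Cish stretch 20 bases into the transcript (Cish, plus strand, chr9:107296559-107296678. Socs3, minus strand, chr11:117969447-117969566).

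Cish: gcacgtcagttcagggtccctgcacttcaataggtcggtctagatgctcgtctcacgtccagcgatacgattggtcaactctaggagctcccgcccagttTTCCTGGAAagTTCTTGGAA

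Socs3: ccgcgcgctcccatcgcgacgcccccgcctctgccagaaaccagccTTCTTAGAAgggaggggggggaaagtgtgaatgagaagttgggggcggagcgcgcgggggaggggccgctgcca

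The Cish window held 2 copies, TTCCTGGAA and TTCTTGGAA, counted in windows of which 0.457% held 2 or more. The Socs3 window held TTCTTAGAA, with its first base 154 bases before the start. The windows of Socs1 and Socs4 held no match, which says only that these letters are not in the window. A match is a description of the sequence. No binding was measured here.

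In the mm9 genome, to which the reads were mapped (positions from the annotation of NCBIM37, the same assembly), Cish lies at chr9:107198357-107205115, Socs1 at chr16:10783901-10785629, Socs2 at chr10:94847996-94879814 and Socs3 at chr11:117827393-117831361. Socs4 lies at chr14:47896606-47915773, Socs5 at chr17:87507019-87536923 and Socs7 at chr11:97223865-97259856. Reads were counted over whole transcripts, and no member was joined with another gene. Libraries of WT ILC2s held 12997489 to 22350339 counts on genes and those of Tgfbr2-/- ILC2s 12167066 to 32114265. WT ILC2p libraries held 12276824 to 35961215 counts and Tgfbr2-/- ILC2p libraries 10957021 to 31993992. Levels between libraries are given as CPM, each count relative to the total of its library after TMM scaling. Levels between genes are given as RPKM, which divides by transcript length.

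Tgfbr2 itself did not separate the genotypes. In ILC2s it was at 172, 262, 147 and 206 CPM across the WT libraries and at 206, 184 and 96.1 CPM in the libraries labelled Tgfbr2-/-. In ILC2p it was at 0.714, 233, 107 and 188 CPM across the WT libraries and at 87.2, 130, 30.8 and 218 CPM in those labelled Tgfbr2-/-. Counts over a whole transcript do not show whether the floxed part is missing from it, so they neither check nor contradict the labels. Genotypes below are those of the labels.

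The ILC2 libraries carried the markers of their label, while the ILC2p libraries did so in part. All 12 ILC2 markers in a fixed list, among them Gata3, Il7r and Il1rl1, were above 1 CPM in each ILC2 library, and their summed level was 6880 to 9980 CPM. In ILC2p the same 12 genes summed to 8723, 6484, 7278 and 6020 CPM across the WT libraries but to 2851, 2651, 2686 and 3846 CPM in the Tgfbr2-/- libraries. In experiment 1, 1 and 2 of the 12 were at 0 counts in the WT ILC2p libraries and 3 in each Tgfbr2-/- ILC2p library, and in experiment 2 none of the 12 was at 0 counts in any of the 4 ILC2p libraries. Markers of neutrophils and myeloid precursors were abundant in the Tgfbr2-/- ILC2p libraries. The 9 genes of that list that the files hold summed to 83453, 72617, 70948 and 84004 CPM in Tgfbr2-/- ILC2p, against 775, 1558, 903 and 1469 CPM in WT ILC2p and at most 78.7 CPM in ILC2s. All 9 were above 1 CPM in each ILC2p library. The most abundant was S100a8, a calcium-binding protein of neutrophils, in Tgfbr2-/- ILC2p (23770 to 29562 CPM) and Mpo, the myeloperoxidase of their granules, in WT ILC2p (399 to 1090 CPM). Basophil and mast cell markers summed to 1210 to 1905 CPM in Tgfbr2-/- ILC2p and to 111 to 298 CPM in WT ILC2p. Dendritic cell and macrophage markers summed to 732 to 1775 CPM in WT ILC2p, 1060 to 2227 CPM in Tgfbr2-/- ILC2p and 197 to 1433 CPM in ILC2s. NK and ILC1 markers summed to 0.446 to 37.5 CPM in WT ILC2p, 94.5 to 428 CPM in Tgfbr2-/- ILC2p and 214 to 967 CPM in ILC2s. Early progenitor markers summed to 627, 784, 625 and 729 CPM in WT ILC2p, 585, 580, 408 and 589 CPM in Tgfbr2-/- ILC2p and 545 to 745 CPM in ILC2s. ILC3 markers were at 19.8 to 857 CPM over all libraries, and T cell, B cell and erythroid markers at no more than 165 CPM. The sums of the myeloid, basophil, NK, early progenitor and ILC2 lists move with the genotype in ILC2p, and their part in each ILC2p result below was not tested. Fewer cells of a type and less RNA per cell cannot be told apart in such libraries.

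Some ILC2p libraries also lacked genes that the others held. Genes whose median reached 50 CPM in the other libraries of the cell type were taken as well covered, and 14.7% of them were under 1 CPM in WT replicate 1 of experiment 1, 13.0% and 14.5% in Tgfbr2-/- replicates 1 and 2 of experiment 1, and 9.76% in Tgfbr2-/- replicate 2 of experiment 2. The share was 1.36% to 3.73% in the other 4 ILC2p libraries and at most 0.027% in ILC2s. Folds of the members called or without overlap, and counts of calls, that rest on ILC2p were therefore also computed without the 3 libraries in which the share was over 10%, an alternative chosen after the data were seen.

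**Figure D1:**
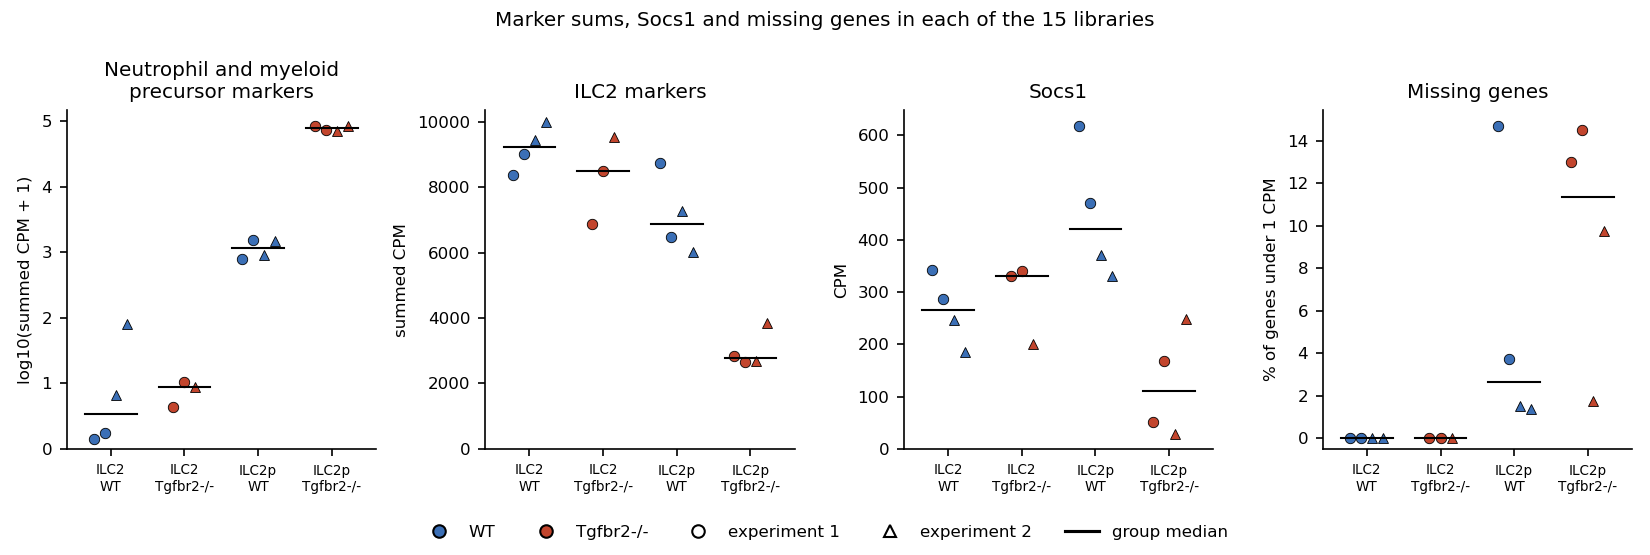
Each point is 1 of the 15 libraries, by group on the x axis. The panels show the summed level of the neutrophil and myeloid precursor markers as log10(CPM + 1), the summed ILC2 markers in CPM, Socs1 in CPM and the percent of genes with at least 50 CPM in the other libraries that were under 1 CPM, and bars are group medians. The 4 Tgfbr2-/- ILC2p libraries sit at 70948 CPM or more for the myeloid markers and below every other library for the ILC2 markers.

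Per length of transcript, Socs1 had the highest level of the family in 6 of 7 ILC2 libraries and Cish in the other one. The median RPKM over the 7 libraries was 236 for Socs1, 144 for Cish, 94.8 for Socs2 and 45.4 for Socs3. The others followed at 12.3 for Socs5, 5.91 for Socs4, 4.45 for Socs6 and 2.69 for Socs7. Cish and Socs1 to Socs3 together made up 90.9% to 99.6% of the family's RPKM in each ILC2 library. Neighbours in this order overlapped in range. Among the 4 highest members, those further apart did not overlap: the lowest Socs1 value (176 RPKM) lay above the highest Socs2 value (139 RPKM), and the lowest Cish value (81.1 RPKM) lay above the highest Socs3 value (75.9 RPKM). The ranges of the low members overlapped also where they were not neighbours, as for Socs5 (1.69 to 30.7 RPKM) and Socs7 (0.106 to 3.31 RPKM). Within single libraries each member exceeded the next one in 6 of 7, and Socs4 exceeded Socs6 in 7 of 7.

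In ILC2p the order is given by genotype. In WT ILC2p the median over 4 libraries was 392 RPKM for Socs1, 147 for Cish and 35.7 for Socs2, followed by 17.3 for Socs5, 17.2 for Socs4, 9.56 for Socs6, 4.82 for Socs3 and 0.0565 for Socs7. In Tgfbr2-/- ILC2p it was 81.5 RPKM for Socs1, 67.3 for Cish, 18.4 for Socs3 and 13.5 for Socs2, with the other 4 members at 0.302 or lower. Socs3 exceeded Cish there in replicate 2 of experiment 1 (102 against 28.7 RPKM) and of experiment 2 (36.1 against 35.4 RPKM). Spread within a group differed between members and groups. The highest Socs1 library exceeded the lowest 1.84-fold in CPM in WT ILC2s, 1.70-fold in Tgfbr2-/- ILC2s, 1.87-fold in WT ILC2p and 8.95-fold in Tgfbr2-/- ILC2p. For Socs2 the same ratios were 1.94-fold, 1.65-fold, 2.91-fold and 132-fold. Socs4, Socs5 and Socs6 were each under 1 CPM in 4 of 8 ILC2p libraries, and Socs7 in 5 of 8.

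**Figure D2:**
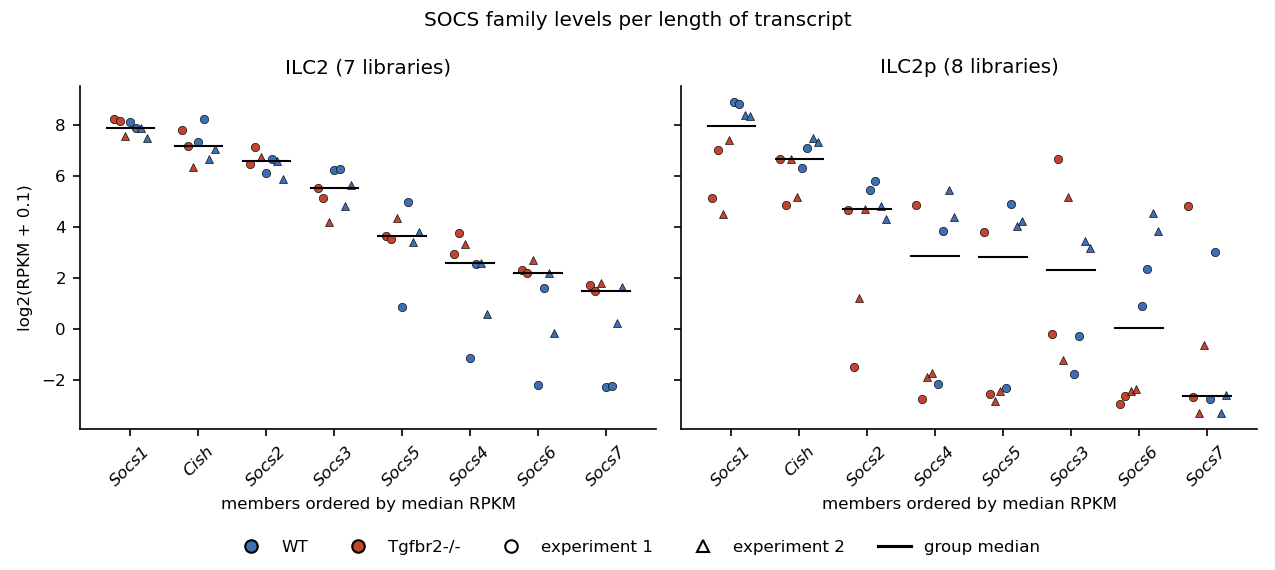
The y axis is log2(RPKM + 0.1), the level per length of transcript, and the x axis orders the 8 members by their median in each cell type, with 1 point per library and bars for medians. The points of Socs1 lie between 176 and 297 RPKM in ILC2s, between 326 and 479 RPKM in WT ILC2p and between 22.6 and 169 RPKM in Tgfbr2-/- ILC2p.

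Of the kinase-inhibiting members, Socs3 had the lower values in Tgfbr2-/- ILC2s. It was at 205 and 198 CPM across the WT libraries of experiment 1 against 110 and 90.8 CPM in the Tgfbr2-/- libraries, and at 64.1 and 114 CPM against 42.3 CPM in experiment 2. Each Tgfbr2-/- library was thus below each WT library of its own experiment, but not below all WT libraries. Its log2 fold change was -1.06 (SE 0.24), with an unadjusted p of 0.00216 and an adjusted p of 0.877 by the quasi-likelihood test of edgeR, adjusted by Benjamini-Hochberg over all 11981 genes. It was therefore not called. The exact permutation test within experiments gave p = 0.111, two-sided over 18 arrangements, against a smallest possible value of 0.0556. Socs1 did not separate: it was at 342, 286, 247 and 186 CPM across WT and at 330, 341 and 201 CPM in Tgfbr2-/- ILC2s.

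The STAT5-induced members did not pass the test by genotype in ILC2s. Cish was at 343, 609, 183 and 242 CPM across the WT libraries and at 424, 299 and 149 CPM in the Tgfbr2-/- libraries. Socs2 was at 156, 215, 177 and 111 CPM across WT and at 180, 298 and 204 CPM in Tgfbr2-/- ILC2s. In both genes the genotypes overlapped within experiment 1.

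Socs4, Socs6 and Socs7, 3 low members of the family, had their higher values in Tgfbr2-/- ILC2s, without passing the test. Socs7 was at 0.748, 0.721, 6.31 and 17.7 CPM across the WT libraries and at 19.9, 18.1 and 19.8 CPM in the Tgfbr2-/- libraries, which did not overlap. Its log2 fold change was 3.39 (SE 1.18, unadjusted p = 0.0200, adjusted p = 0.898 by edgeR). It was 4.67 in experiment 1 alone and 0.75 in experiment 2 alone, and ran from 2.61 to 4.65 with 1 library left out. Socs4 was at 0.748, 11.8, 10.8 and 2.57 CPM across WT and at 14.3, 27.5 and 17.9 CPM in Tgfbr2-/- ILC2s, with a log2 fold change of 1.59 (SE 0.99, adjusted p = 0.898 by edgeR). Socs6 was at 0.374, 8.99, 12.2 and 2.16 CPM across WT and at 13.9, 13.8 and 17.4 CPM in Tgfbr2-/- ILC2s, with a log2 fold change of 1.43 (SE 1.09, adjusted p = 0.898 by edgeR). With 1 library left out the log2 fold change ran from 1.10 to 3.04 for Socs4 and from 0.94 to 3.14 for Socs6, lowest without WT replicate 1 and highest without WT replicate 2 of experiment 1 for both. Socs5 overlapped, at 7.48 to 129 CPM across WT and 47.9 to 75.1 CPM in Tgfbr2-/- ILC2s. WT replicate 1 of experiment 1 held the lowest value of Socs4, Socs5 and Socs6.

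In all, 0 of 8 members were called in ILC2s, and 0% of the 11981 genes tested were called by edgeR. Of these genes 557, or 4.65%, had an unadjusted p under 0.05. DESeq2 called 338 genes, among them Socs3 with an adjusted p of 0.0190 and Socs7 with an adjusted p of 0.0182, and limma on log2(RPKM + 1) called 0. Within both experiments, 4 of 8 members did not overlap between genotypes (Socs3 below, Socs4, Socs6 and Socs7 above), beside 12.6% of all genes tested.

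**Figure D3:**
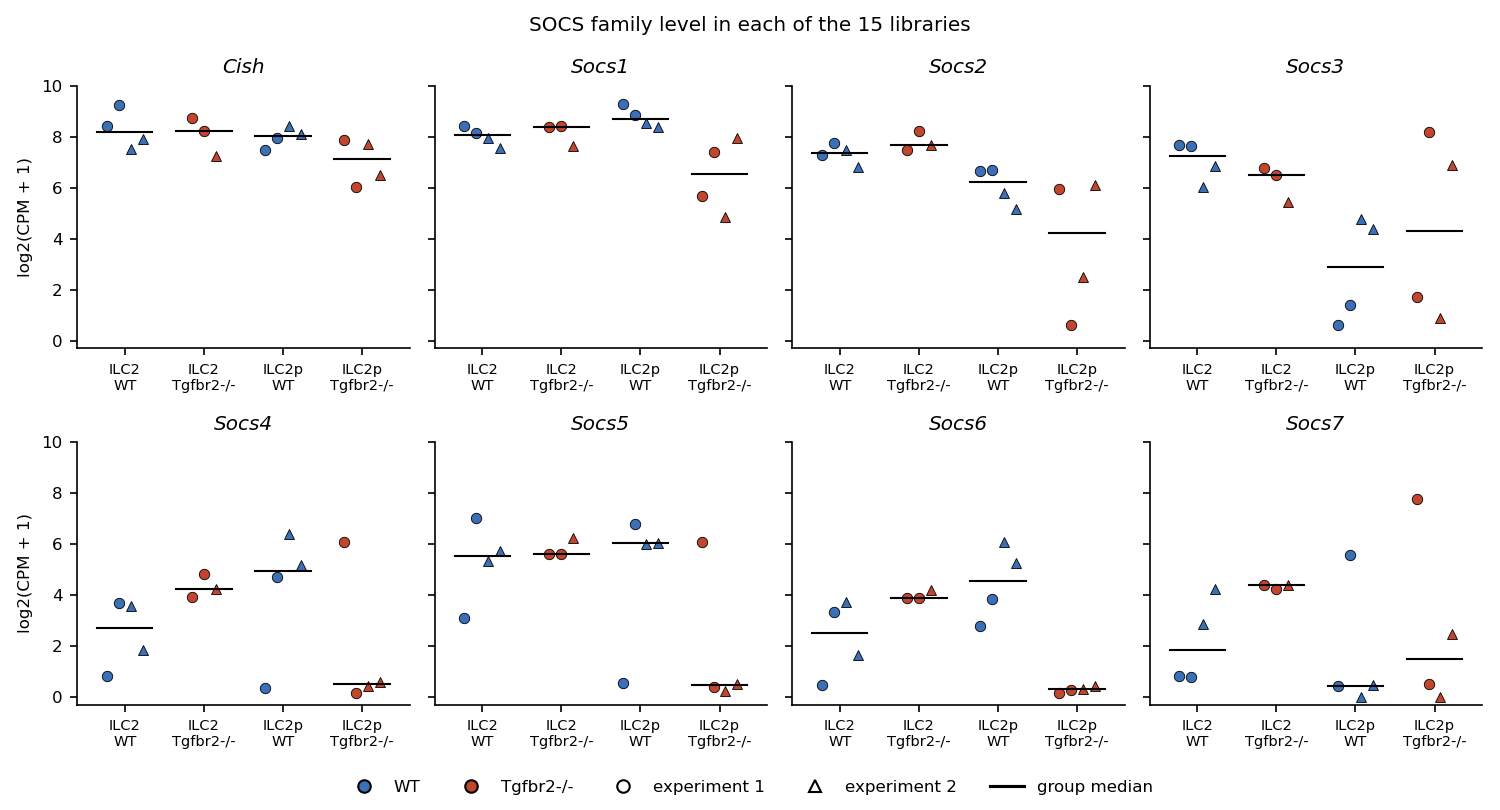
Each panel is 1 member, with log2(CPM + 1) on the y axis, the 4 groups on the x axis, 1 point for each of the 15 libraries and bars for group medians. Cish, Socs1 and Socs2 stay between 111 and 609 CPM in the 7 ILC2 libraries, and all 4 Tgfbr2-/- ILC2p libraries lie under 0.35 CPM for Socs6.

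In ILC2p, Socs6 fell in the Tgfbr2-/- libraries. The WT libraries held 65, 228, 2339 and 1521 counts (5.80, 13.2, 66.1 and 36.9 CPM) and the Tgfbr2-/- libraries 1, 2, 6 and 9 counts (0.0991, 0.207, 0.255 and 0.348 CPM). The groups did not overlap. The log2 fold change was -6.71 (SE 1.66), with an adjusted p of 0.0889 by edgeR over 9242 genes. Socs6 was the 1 member called of 7 tested, where 3.47% of all genes were called. It passed the filter on low counts through the WT libraries only. Without that filter it was not called (adjusted p = 0.256 by edgeR). With at least 10 counts required in every library it was not tested. The call was lost when any 1 of the 8 libraries was left out, with log2 fold changes from -7.11 to -6.36 and adjusted p-values from 0.101 to 0.257. Without the 3 libraries that lacked the most genes the log2 fold change was -7.47 (adjusted p = 0.315). Within experiment 1 alone it was -5.89 and within experiment 2 alone -7.48, and Socs6 was called in neither.

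Socs1 was at 618, 470, 372 and 331 CPM in WT ILC2p and at 50.8, 169, 27.9 and 249 CPM in Tgfbr2-/- ILC2p. Each Tgfbr2-/- library lay below each WT library. The log2 fold change was -1.86 (SE 0.67, unadjusted p = 0.0221, adjusted p = 0.336 by edgeR), so Socs1 was not called. The exact permutation test within experiments gave p = 0.0556, two-sided, which is the smallest value that the 36 arrangements allow in a balanced design. Limma on log2(RPKM + 1) called it (adjusted p = 0.0389), where 5.8% of all genes were called. So did edgeR without Tgfbr2-/- replicate 2 of experiment 2 (log2 fold change -2.80, adjusted p = 0.0846), where 2.36% were. Without the 3 libraries that lacked the most genes it was -1.44 (adjusted p = 0.670). Set against the summed CPM of the ILC2 markers, Socs1 was 7.09%, 7.25%, 5.11% and 5.49% in WT and 1.78%, 6.37%, 1.04% and 6.48% in Tgfbr2-/- ILC2p. On that scale, chosen after the data were seen, 2 Tgfbr2-/- libraries lay within the WT range and 2 below it. Socs6 stayed apart on it, at 0.0665% to 0.909% in WT and 0.00348% to 0.00948% in Tgfbr2-/- ILC2p. Cish was at 2.04% to 4.70% in WT and at 8.25%, 2.44%, 7.82% and 2.37% in Tgfbr2-/- ILC2p, so that 2 libraries lay above the WT range and 2 within it. Dividing by the ILC2 markers moves all genes of a library by the same factor, so these positions are a description and do not test the members. A member that was not called in ILC2p may still differ, since the spread between these libraries was wide.

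Socs1 and Socs6 were the 2 of 8 members whose genotypes did not overlap within either ILC2p experiment, beside 14.0% of all genes tested. The remaining members overlapped and varied widely among the Tgfbr2-/- libraries. Socs3 was at 0.535, 1.63, 26.4 and 19.7 CPM in WT ILC2p and at 2.28, 289, 0.849 and 117 CPM in Tgfbr2-/- ILC2p, so that replicate 2 of each experiment was high and replicate 1 low. Socs2 was at 101, 103, 55.2 and 35.4 CPM across WT and at 60.7, 0.518, 4.71 and 68.5 CPM in Tgfbr2-/- ILC2p. Cish was at 178, 246, 342 and 276 CPM across WT and at 235, 64.6, 210 and 91.0 CPM in Tgfbr2-/- ILC2p. In Tgfbr2-/- ILC2p the libraries high in Socs3 were low in Cish in both experiments, a description of 4 libraries without a test.

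Socs4, Socs5 and Socs7 were near 0 or well above it, with little between. Socs4 was at 0.268, 25.2, 82.9 and 35.7 CPM across WT and at 67.6, 0.104, 0.340 and 0.503 CPM in Tgfbr2-/- ILC2p. Socs5 was at 0.446, 109, 63.6 and 65.5 CPM across WT and at 65.9, 0.311, 0.170 and 0.425 CPM in Tgfbr2-/- ILC2p. Socs7 was at 0.357, 46.4, 0 and 0.364 CPM across WT and at 217, 0.414, 0 and 4.56 CPM in Tgfbr2-/- ILC2p, and was left out of the test by the filter on low counts. Over the 7 members tested, log2 fold changes ran from -6.71 to 4.15 with a median of -1.86, beside a median of -0.10 over all genes. WT replicate 1 of experiment 1, which lacked the most genes, was the lowest WT library in Socs3 to Socs6.

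**Figure D4:**
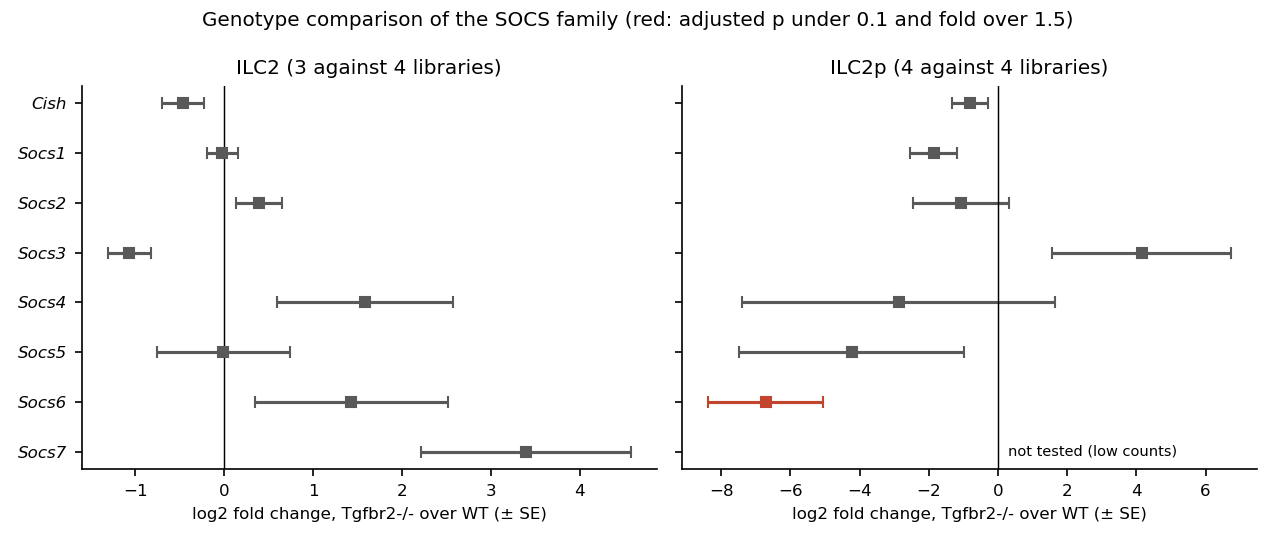
Points are log2 fold changes of Tgfbr2-/- over WT from edgeR with bars of 1 SE, for the 8 members in ILC2s (left) and the 7 tested in ILC2p (right), on axes of different range. Red marks a member with an adjusted p under 0.1 and a fold over 1.5, which is Socs6 in ILC2p at -6.71. SEs lie between 0.18 and 1.18 in ILC2s and between 0.52 and 4.52 in ILC2p.

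The effect of genotype was compared between the cell types in 1 fit over all 15 libraries. The cell type, the tissue, the irradiated host, the experiment and the time since tamoxifen differ together here. Their parts in a difference of the effects cannot be told apart. Socs6 differed: the effect in ILC2s exceeded that in ILC2p by 8.13 on the log2 scale (SE 1.84, adjusted p = 0.0766 by edgeR), as its level was higher in each Tgfbr2-/- ILC2 library and lower in each Tgfbr2-/- ILC2p library than in the WT libraries of the same cell type. The Tgfbr2-/- ILC2p libraries held 1, 2, 6 and 9 counts of Socs6, so the size of the difference rests on values near 0. In ILC2s alone the log2 fold change by genotype was 1.43 (adjusted p = 0.898 by edgeR). Socs6 was the 1 member called of 8 in the difference of the effects, where 0.992% of 12806 genes were called. Without a filter on low counts it was not called (adjusted p = 0.146 by edgeR). The call was lost without any 1 of 11 of the 15 libraries, which include all 7 ILC2 libraries and, of the ILC2p libraries, WT replicate 2 and Tgfbr2-/- replicate 1 of experiment 1 and both WT libraries of experiment 2. Adjusted p-values with 1 library left out ran from 0.0452 to 0.437. Without the 3 libraries that lacked the most genes Socs6 was still called (8.84, adjusted p = 0.0587), and so were Socs4 and Socs5, where 4.60% of all genes were called. Socs1 differed by 1.83 (SE 0.80, unadjusted p = 0.0386, adjusted p = 0.366 by edgeR) and was not called. With 1 library left out its difference ran from 1.49 to 2.82. It was called without Tgfbr2-/- ILC2p replicate 2 of experiment 2 (2.82, adjusted p = 0.0622 by edgeR), where 1.51% of all genes were called. Limma on log2(RPKM + 1) also called it (2.65, adjusted p = 0.0969), where 3.25% were. The other 6 members had differences from -5.20 to 4.42, none called.

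WT ILC2s and WT ILC2p were compared next. The cell type, the tissue, the irradiated host, the experiment and the time since treatment differ together between these libraries and cannot be told apart. Socs3 was at 64.1 to 205 CPM in WT ILC2s and at 0.535 to 26.4 CPM in WT ILC2p, without overlap. The log2 fold change was 3.59 (SE 1.09, unadjusted p = 0.00803, adjusted p = 0.210 by edgeR), and it was 3.21 (adjusted p = 0.116) without WT ILC2p replicate 1 of experiment 1. Between the first experiments it was 7.50 and between the second ones 1.96. Socs2 was at 111 to 215 CPM in WT ILC2s and at 35.4 to 103 CPM in WT ILC2p, also without overlap, with a log2 fold change of 1.17 (SE 0.42, unadjusted p = 0.0185, adjusted p = 0.339 by edgeR) and of 1.38 without WT ILC2p replicate 1 of experiment 1. For both genes the exact permutation test gave p = 0.0286, two-sided, the smallest that the 70 arrangements allow. Socs1 lay the other way, at 186 to 342 CPM in WT ILC2s and 331 to 618 CPM in WT ILC2p, with a log2 fold change of -0.75 (SE 0.27, unadjusted p = 0.0215, adjusted p = 0.367 by edgeR) and 1 ILC2 library within the ILC2p range.

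In this comparison 0 of 8 members were called by edgeR, where 2.56% of 10468 genes were called and 983 genes had an unadjusted p under 0.05. DESeq2 called 1 member, Socs3 (adjusted p = 0.00566), where it called 5.77% of all genes. Limma on log2(RPKM + 1) called Socs1 and Socs3, where 4.27% were called, and limma on log2(RPKM + 0.1) called Socs1, where 3.62% were. Limma-voom with experiment as a random block called Socs2 (adjusted p = 0.0383), where 5.09% were. Socs2 and Socs3 were the 2 of 8 members without overlap, beside 10.4% of all genes tested. The other 5 members had log2 fold changes from -2.45 to 0.41.

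The same comparison in the Tgfbr2-/- libraries, which share no library with the WT comparison, called Socs6. Its level was 13.9, 13.8 and 17.4 CPM in Tgfbr2-/- ILC2s and under 0.35 CPM in the 4 Tgfbr2-/- ILC2p libraries. The log2 fold change was 5.91 (SE 1.32, adjusted p = 0.0270 by edgeR), and 5.50 (adjusted p = 0.0463) without the 2 Tgfbr2-/- ILC2p libraries that lacked the most genes. It was 1 of 8 members called, where 13.7% of 11469 genes were called. Socs6 passed the filter on low counts through the ILC2 libraries only. It was also called without a filter, but with at least 10 counts required in every library it was not tested. Socs2 did not overlap either, at 180 to 298 CPM against 0.518 to 68.5 CPM, with a log2 fold change of 2.68 (SE 1.28, adjusted p = 0.330 by edgeR), and of 2.48 without the same 2 libraries. These 2 members without overlap stand beside 24.5% of all genes tested. The exact permutation test gave p = 0.0286 for Socs6 and p = 0.0857 for Socs2, two-sided over 35 arrangements. With Tgfbr2-/- ILC2p replicate 1 of experiment 1 left out, Socs4 and Socs5 were called too, where 16.4% of 11394 genes were called. That library alone held 67.6 CPM of Socs4 and 65.9 CPM of Socs5 in its group. Socs3, at 42.3 to 110 CPM in Tgfbr2-/- ILC2s and 0.849 to 289 CPM in Tgfbr2-/- ILC2p, overlapped.

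Within ILC2s the experiments also differed in members of the family. Cish and Socs3 were higher in experiment 1 than in experiment 2. Cish was at 343, 609, 424 and 299 CPM in the 4 libraries of experiment 1 and at 183, 242 and 149 CPM in the 3 of experiment 2, without overlap, and its log2 fold change with genotype in the model was 1.22 (SE 0.24, adjusted p = 0.0980 by edgeR). Socs3 had a log2 fold change of 1.22 (SE 0.24, adjusted p = 0.0999 by edgeR) and did not overlap within either genotype. Socs1, at 286 to 342 CPM in experiment 1 and 186 to 247 CPM in experiment 2, did not overlap, and its log2 fold change of 0.63 (SE 0.18, adjusted p = 0.167 by edgeR) was not called. Socs7 was lower in experiment 1, with a log2 fold change of -2.73 (SE 1.17, unadjusted p = 0.0475, adjusted p = 0.367 by edgeR) and from -3.98 to -1.79 with 1 library left out. For Cish, Socs1 and Socs3 the exact permutation test within genotypes gave p = 0.0556, two-sided over 18 arrangements, the smallest these allow.

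In all, 2 of 8 members were called between the ILC2 experiments, where 0.977% of 11981 genes were called, and 3 of 8 did not overlap within either genotype, beside 24.0% of all genes tested. Both calls were lost when any 1 of the 7 libraries was left out, with log2 fold changes from 1.01 to 1.39 for Cish and from 1.05 to 1.48 for Socs3, and when libraries were scaled by library size or the upper quartile. The experiments also differed in the summed epithelial markers, which were at 6.64, 15.7, 39.3 and 33.8 CPM in experiment 1 and at 220, 399 and 864 CPM in experiment 2. The most abundant epithelial gene in experiment 2 was the keratin Krt8 or the secretory gene Agr2. The summed ILC2 markers were at 6880 to 9004 CPM in experiment 1 and 9446 to 9980 CPM in experiment 2. The summed ILC3 markers were at 367 to 857 CPM and 214 to 308 CPM. The part of the epithelial, ILC2 and ILC3 markers in this result was not tested.

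**Figure D5:**
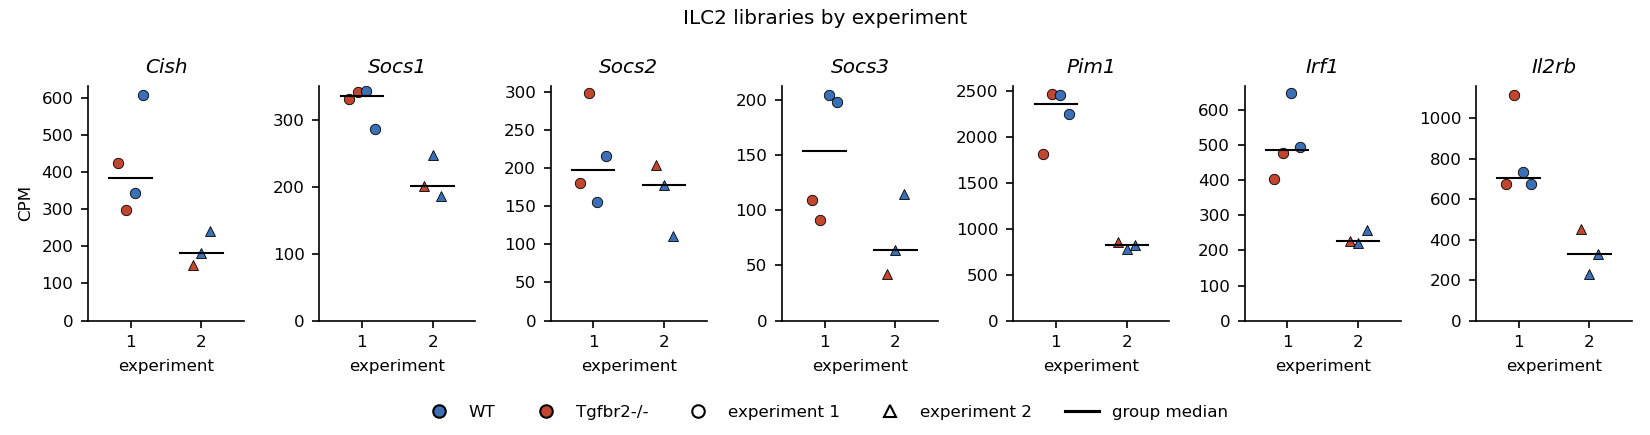
CPM of 4 members and of 3 other cytokine-signaling genes in the 7 ILC2 libraries, by experiment on the x axis, with genotype by colour and bars for medians. Cish, Socs1, Pim1, Irf1 and Il2rb do not overlap between the experiments, while Socs2 and Socs3 do. Socs3 does not overlap within either genotype.

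The other genes of the pathway were counted from lists of fixed membership. Of the partners of the SOCS box (elongins, cullins and RING proteins), 0 of 6 were called in any of the 6 comparisons, with medians from -0.19 to 0.19 on the log2 scale. The counts were likewise 0 of 4 for JAK kinases and 0 of 7 for STAT factors in each comparison. Between 0% and 13.7% of all genes were called in these comparisons, so that counts of 0 in lists this short lie near the background. The JAK kinases had a median log2 fold change of 0.21 in Tgfbr2-/- ILC2s and -0.58 in Tgfbr2-/- ILC2p, beside medians of -0.01 and -0.10 over all genes. Of 14 genes listed as other negative regulators of the pathway, 1 was called in ILC2p by genotype, where 3.47% of all genes were. It was Dusp1, the gene of a phosphatase known mainly for acting on MAP kinases and not on JAK or STAT proteins. Dusp1 is also in the list of immediate early genes, so its call is not particular to regulators of JAK-STAT. It was lower in Tgfbr2-/- ILC2p, at 20817, 10348, 13996 and 9342 CPM across WT and 5474, 6171, 4205 and 7338 CPM in Tgfbr2-/- ILC2p (log2 fold change -1.25, SE 0.25, adjusted p = 0.0413 by edgeR).

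Of 30 receptors of JAK-STAT cytokines, 23 were tested in ILC2p, and 5 were called higher and 2 lower in the Tgfbr2-/- libraries, where 3.47% of all genes were called. The other 16 were not called. Csf3r, the G-CSF receptor, was at 0.803, 0.814, 2.21 and 1.38 CPM across WT and 282, 332, 333 and 559 CPM in Tgfbr2-/- ILC2p, and at 0 counts in 6 of 7 ILC2 libraries (log2 fold change 8.21, adjusted p = 9.13e-05 by edgeR). Il13ra1, a receptor chain for IL-13, and Csf2rb, the shared chain for IL-3, IL-5 and GM-CSF, also rose, by 8.24 and 6.37 on the log2 scale. Il10ra and Il9r, the receptor chains for IL-10 and IL-9, fell, with log2 fold changes of -7.73 and -7.23. The rise of Csf3r went with that of the neutrophil markers given above, and their part in it was not tested. The lineage stain in the study's methods includes CD11b and Gr-1, which are surface markers of neutrophils. How completely the sort removed such cells was not tested. In ILC2s 0 of 19 tested receptors were called by genotype. Of 20 tested between WT ILC2s and WT ILC2p, Il9r and Ifngr1 were called higher in ILC2s and Il6ra and Csf3r lower, where 2.56% of all genes were called. Of 24 tested in the Tgfbr2-/- libraries 3 were called higher in ILC2s (Il9r, Il10ra and Il2rb) and 5 lower, where 13.7% of all genes were called. Of 26 tested in the difference of the effects, Il10ra and Il9r were called higher and Csf3r and Csf2ra lower, where 0.992% of all genes were called.

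Genes known to be induced through STAT5 were listed without the family. In ILC2s 0 of 10 were called by genotype, with a median log2 fold change of -0.12. Of the 10, 3 had an unadjusted p under 0.05 by edgeR, as did 4.65% of all genes. In ILC2p 9 were tested, and Osm, the cytokine oncostatin M, rose in the Tgfbr2-/- libraries while Ccnd2, a D-type cyclin, fell, where 3.47% of all genes were called. Osm was at 201, 121, 129 and 117 CPM across WT and 523, 602, 511 and 418 CPM in Tgfbr2-/- ILC2p (log2 fold change 1.84, adjusted p = 0.0187 by edgeR). Ccnd2 was at 1309, 793, 668 and 664 CPM across WT and 410, 329, 342 and 350 CPM in Tgfbr2-/- ILC2p (log2 fold change -1.26, adjusted p = 0.0467 by edgeR). Between the ILC2 experiments 1 of 10 was called, the kinase gene Pim1, where 0.977% of all genes were called. It was at 2464, 2254, 1814 and 2475 CPM in experiment 1 and 782, 828 and 863 CPM in experiment 2 (log2 fold change 1.47, SE 0.16, adjusted p = 0.0434 by edgeR). Il2rb, the receptor β chain for IL-2, was called in the same direction (1.20, adjusted p = 0.0815 by edgeR). The calls of Pim1 and Il2rb were lost in the WT libraries alone and without the Tgfbr2-/- library of experiment 2, where 0 genes were called. They were also lost without WT replicate 1, WT replicate 2 or Tgfbr2-/- replicate 2 of experiment 1, where 0 genes were called higher. Between Tgfbr2-/- ILC2s and ILC2p 2 of the 10 were called higher in ILC2s (Pim1 at 1.73 and Ccnd2 at 1.32 on the log2 scale) and 2 lower (Osm at -3.18 and Mcl1 at -1.96), where 13.7% of all genes were called. Between the WT libraries 0 of the 10 were called, where 2.56% of all genes were. In the difference of the genotype effects Osm was called (-2.16), where 0.992% of all genes were.

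Of 16 genes known to be induced by interferon, 15 were tested in ILC2s by genotype and 0 were called. Their median log2 fold change was 0.96, beside -0.01 over all genes, and 5 of the 15 had an unadjusted p under 0.05, as did 4.65% of all genes. Between the ILC2 experiments, where 0.977% of all genes were called, 1 was called, the transcription factor gene Irf1, higher in experiment 1 (log2 fold change 1.15, adjusted p = 0.0781 by edgeR), while the list's median was -0.79. The call of Irf1 was lost in the WT libraries alone and without the Tgfbr2-/- library of experiment 2, where 0 genes were called. It was also lost without WT replicate 1, WT replicate 2 or Tgfbr2-/- replicate 2 of experiment 1, where 0 genes were called higher. In ILC2p 0 of 12 tested were called by genotype, where 3.47% of all genes were, with a median of 0.88 beside -0.10 over all genes. Between ILC2s and ILC2p 0 of 11 were called in WT, where 2.56% of all genes were called. In the Tgfbr2-/- libraries 1 of 14 was called (Mx2, an antiviral GTPase, adjusted p = 0.0284 by edgeR), where 13.7% of all genes were called. In the difference of the effects 0 of 15 were called, where 0.992% of all genes were.

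Immediate early genes respond to stimulation within minutes. Of 16 tested in ILC2p, 7 were called lower in Tgfbr2-/- libraries and 0 higher, where 3.47% of all genes were called (80 lower and 241 higher). The lowest folds were those of Jund (-1.97 on the log2 scale), Egr1 (-1.96) and Dusp1 (-1.25). In ILC2s 0 of 17 were called by genotype. Between ILC2s and ILC2p 4 of 17 were called higher and 4 lower in WT, where 2.56% of all genes were called, and 6 higher and 3 lower in Tgfbr2-/- libraries, where 13.7% were. Those with the greatest folds above ILC2p were Egr2, Nr4a1 and Fosl2 in both. In the difference of the effects Jund was called (1.85 on the log2 scale), where 0.992% of all genes were. Between the ILC2 experiments 1 of 17 was called, where 0.977% of all genes were: Fosb, higher in experiment 1 (0.97 on the log2 scale, adjusted p = 0.0727 by edgeR). The call of Fosb was lost in the WT libraries alone and without the Tgfbr2-/- library of experiment 2, where 0 genes were called. It was also lost without WT replicate 1, WT replicate 2 or Tgfbr2-/- replicate 2 of experiment 1, where 0 genes were called higher.

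Without the 3 libraries that lacked the most genes, fewer genes were called in ILC2p by genotype (61 of 10961, or 0.557%). Of the lists above, only the receptors then held a call, that of Csf3r (7.88 on the log2 scale, adjusted p = 0.0385 by edgeR), so that the calls of all other list members named for ILC2p by genotype were lost. The folds of those named kept their direction, with Dusp1 at -1.10, Il13ra1 at 7.62, Csf2rb at 4.22, Il10ra at -7.77, Il9r at -6.88, Osm at 1.86, Ccnd2 at -1.01, Jund at -2.13 and Egr1 at -2.11 on the log2 scale. Between Tgfbr2-/- ILC2s and ILC2p 20.5% of all genes were called without the 2 of these libraries in that comparison, with 1 of 6 partners of the SOCS box (Rbx1, lower in ILC2s), 3 of 14 negative regulators, 10 of 26 receptors, 5 of 10 STAT5 genes, 3 of 16 interferon genes and 8 of 17 immediate early genes. Between WT ILC2s and ILC2p, without the remaining one, 3.30% were called, with 6 of 22 receptors, 2 of 10 STAT5 genes (Mcl1 and Pim2) and 8 of 17 immediate early genes. In the difference of the effects 4.60% were called, with 4 of 27 receptors, 1 of 14 negative regulators (Ptpn6), 1 of 10 STAT5 genes (Osm) and 2 of 17 immediate early genes (Jund and Atf3).

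The genes with the pattern most like that of each member were found by Pearson's r of log2(CPM + 1) over the 15 libraries among the 7628 genes whose median reached 10 CPM. The libraries share cell type, depth and the missing genes described above, so r is given as a description. Socs3 was most like St3gal2 (r = 0.98) and Fads1 (r = 0.92), and Socs2 most like Ccr8 (r = 0.95) and Tiparp (r = 0.95). Socs1 was most like Fbxo22 (r = 0.92) and Snrnp27 (r = 0.89), and Cish most like Sik1 (r = 0.84) and Anxa6 (r = 0.83). For Socs4 the genes were Zfp398 and C230052I12Rik (r = 0.94 for both), and for Socs5 they were Rxrg (r = 0.96) and Arf2 (r = 0.94). Socs6 and Socs7 had medians of 8.99 and 4.56 CPM and were not compared. No other member of the family was among the genes named here.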

How the data were processed

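For each library the authors mapped reads to mm9 with TopHat, keeping up to 15 hits per read (the submitters' processing notes name Bowtie2), and counted them over full RefSeq transcripts with rpkmforgenes, without regions where genes overlap. Strand was not given in the sources used here. The authors deposited raw counts and, beside them, RPKM relative to the reads of the file header. A read with several hits may add to related genes.

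Counts were analysed with edgeR 4.0.16 in R 4.3.3 (TMM, filterByExpr, quasi-likelihood test) across all genes, with experiment as covariate in the genotype comparisons and genotype in that of the experiments. A gene was called at an adjusted p under 0.1 and a fold over 1.5. SEs are the log2 fold change over the square root of F. Single values were tested by exact permutation. The test was tested on simulated data, where most of the known changes between the ILC2p genotypes were not called, so that a gene not called there may still have changed. Alternatives used DESeq2 1.42.0 and limma 3.58.1 (log2 of RPKM plus 1 or 0.1), library size and upper quartile scaling, other filters, thresholds and covariates, a replicate block, each experiment alone and leaving out each library. Scripts ran in Python 3.11.15. Members, lists and named genes (members with p under 0.05 or without overlap, and at most 3 called genes for each list and direction) were chosen with earlier results of these data known. Of the marker lists, Ly6g and Adgre1 were not matched.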

Additional observations from a re-analysis of the deposited data

Results flagged for a closer look

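Among 24 sets of 4 libraries, each 1 member in 1 group, 4 sets from 3 members held a library far from the other 3 on the log2(CPM + 1) scale by Dixon's criterion, whose level is set so that chance marks about 1 set in 20. In Tgfbr2-/- ILC2p, replicate 1 of experiment 1 stood apart for Socs4, at 67.6 CPM, and for Socs5, at 65.9 CPM. In WT ILC2p, replicate 1 of experiment 1 stood apart for Socs5, at 0.446 CPM, and replicate 2 of experiment 1 for Socs7, at 46.4 CPM. Both replicate 1 libraries were among the 3 that lacked the most genes, and the part of that in these values was not tested.

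The effect of genotype on Socs6 differed between the cell types by 8.13 on the log2 scale in the test of the difference itself (adjusted p = 0.0766 by edgeR). The Tgfbr2-/- ILC2p libraries held 1, 2, 6 and 9 counts of this gene. The cell type, the tissue, the host, the experiment and the time since tamoxifen cannot be told apart. The call was lost without any 1 of 11 of the 15 libraries, without a filter on low counts (adjusted p = 0.146), with a replicate block (0.151) and at a threshold of 0.05.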

How the results depend on the processing

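For 17 log2 fold changes of members, 311 alternative values were computed. None changed sign, 241 kept their side of the thresholds, 53 lost a call and 17 gained one. The number of members called changed as follows, and the cause was not tested. In ILC2s by genotype (0 called) DESeq2 called 2. In ILC2p by genotype (1 called) DESeq2 and limma with either pseudocount called 2. The count was 0 with at least 10 counts in every library, which left 2 members in the test, with an adjusted p under 0.05, in either experiment alone and without the 3 libraries that lacked the most genes, and 0 to 1 with 1 library left out. Without a filter 1 was called, Socs1 in place of Socs6. For the difference of the effects (1 called) DESeq2 and limma on log2(RPKM + 1) called 2. The count was 0 without a filter, with at least 10 counts and with an adjusted p under 0.05, 3 without the 3 libraries and 0 to 2 with 1 library left out. Between WT cell types (0 called) the count was 1 with DESeq2, limma on log2(RPKM + 0.1) and limma-voom with experiment as a random block, and 2 with limma on log2(RPKM + 1). Between Tgfbr2-/- cell types (1 called) it was 2 with limma on log2(RPKM + 1), 0 with at least 10 counts, 3 with limma-voom and without the libraries that lacked the most genes, and 1 to 3 with 1 library left out. Between the ILC2 experiments (2 called) it was 4 with DESeq2, 1 without genotype in the model, and 0 with limma, library size or upper quartile scaling, at least 10 counts, an adjusted p under 0.05 or the WT libraries alone, and 0 with any 1 library left out.

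With a replicate block, 0 members were called in ILC2p and in the difference of the effects (Socs6 at -6.67 with an adjusted p of 0.253 by edgeR, and 8.71 with 0.151), and no call was made in ILC2s. All genes called went from 321 to 175 and from 127 to 70. Same-numbered libraries did not deviate together (r of -0.061 in ILC2s, -0.0039 and -0.036 in ILC2p, over 7628 genes), so no pairing was seen. With so few libraries in each experiment, these values cannot exclude a shared animal or sort.

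Over all genes, the calls in ILC2s (0) became 338 with DESeq2 and 3 without a filter. Those in ILC2p (321) became 1229 with DESeq2, 497 with limma on log2(RPKM + 1), 199 with at least 10 counts, 38 and 77 in experiments 1 and 2 alone, 61 without the 3 libraries and 179 to 319 with 1 library left out. Those of the difference of the effects (127) became 1520 with DESeq2, 384 and 345 with limma, 196 and 203 with library size and upper quartile scaling, 259 without a filter, 68 with an adjusted p under 0.05, 627 without the 3 libraries and 14 to 407 with 1 left out. Those between WT cell types (268) became 604 with DESeq2, 419 with limma on log2(RPKM + 1), 533 with limma-voom, 176 without a filter, 5 and 40 in the first and second experiments alone and 95 to 370 with 1 left out. Those between Tgfbr2-/- cell types (1575) became 389 with at least 10 counts, 2838 in the first experiments alone, 2552 without the libraries that lacked the most genes and 1095 to 2384 with 1 left out. Those between the ILC2 experiments (117) became 1347 with DESeq2, 320 without a filter, 23 and 31 with library size and upper quartile scaling, 383 without genotype in the model, 5 with an adjusted p under 0.05, 0 in WT alone and 0 to 19 with 1 left out. Library size and upper quartile scaling moved the median over all genes from -0.10 to -0.31 and -0.40 in ILC2p, where 241 higher and 80 lower calls became 217 and 111 or 203 and 119, and from 0.31 to 0.60 and 0.66 in the difference of the effects, where 60 higher and 67 lower became 131 and 65 or 146 and 57. Between Tgfbr2-/- cell types the median moved from -0.27 to 0.11 and 0.34, and between the ILC2 experiments from 0.00 to -0.20 and -0.16. Depth was at least 10957021 counts in each library, and levels under 1 CPM rest on few counts.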
